A study of Oryza sativa Japonica Group and Oryza sativa Indica Group with 20 samples.

Results

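The Aux/IAA and auxin response factor (ARF) gene families of rice were followed through tissue culture, in a list of 48 loci drawn from rice family membership: 25 Aux/IAA loci and 23 ARF loci. Of these, 47 had a row in the deposited table of 54170 loci. LOC_Os02g06910, an ARF locus, was not analysed here. The test described below took 45 members (23 Aux/IAA and 22 ARF) among 22913 loci that reached at least 1 FPKM (fragment counts scaled to gene length and to the mapped fragments of the library) in at least 2 libraries. RNA was sequenced at 5 stages in 2 cultivars, the japonica cultivar Tainung 67 (TNG67) and the indica cultivar Indica Rice 64 (IR64). T0 is the embryo. T1 is callus, a mass of largely unorganised dividing cells, induced from seeds on medium holding the synthetic auxin 2,4-D at 2.5 mg/L. T2 is callus moved on to fresh medium of that kind. TS and TF are calli that regenerated or failed to regenerate on regeneration medium (the auxin NAA at 0.02 mg/L, the cytokinin BAP at 2 mg/L), so the change of stage from T2 to TS or TF and the change of medium cannot be told apart. Each cultivar and stage had 1 RNA library, and the labels do not say how many seeds or calli went into it.

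Auxin acts largely through the removal of repressors. Aux/IAA proteins bind ARFs, the transcription factors that sit on auxin response elements in promoters, and recruit co-repressors of the TOPLESS family to them. Auxin joins Aux/IAA proteins to F-box receptors of the TIR1/AFB family, which leads to degradation of the repressor and frees the ARF. Many Aux/IAA genes are themselves induced by auxin, which gives the pathway a negative feedback, as worked out mostly in Arabidopsis. ARFs include activators and repressors of transcription, and callus of cereals is commonly induced with an auxin such as 2,4-D. The deposited table names loci only by identifier, and the RefSeq gene table used here (assembly ASM3414082v1) matched 0 of the 48 listed loci. Members are therefore described by family and by the chromosome in their identifier (LOC_Os06g is chromosome 6), without individual gene names or sequences. Receptor genes, co-repressor genes and marker genes of embryo or callus were not analysed here for the same reason, and tissue labels were not checked against markers.

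Depth was unknown, because FPKM values are not counts, and a value of 0 may be a failed estimate. The summed FPKM of all loci lay between 602209 and 1063010 in 9 libraries and was 3792960 in the IR64 embryo, where it was 792962 without the most abundant locus. Median-ratio scaling moved no library by more than 0.066 on the log2 scale. Across loci, the TNG67 TF library correlated at 0.819 to 0.823 with the IR64 calli. The other TNG67 calli correlated with the IR64 calli at 0.698 to 0.777. The comparisons that involve TF are therefore also given without the TNG67 TF library.

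As family sums, Aux/IAA transcripts were highest at T1 and lowest at TF, and ARF transcripts were highest in the embryo. Summed over members, Aux/IAA transcripts stood at 790.5, 889.1, 579.8, 410.1 and 339.4 FPKM in TNG67 at T0, T1, T2, TS and TF. The corresponding sums in IR64 were 845.9, 1238.3, 610.6, 486.6 and 312.2 FPKM. In both cultivars the T1 library was the highest and the TF library the lowest of the 5 stages. Summed ARF transcripts stood at 676.3, 390.1, 469.6, 430.0 and 313.2 FPKM in TNG67 from T0 to TF, and at 730.9, 353.6, 327.0, 288.4 and 316.7 FPKM in IR64. Both embryos were above all 8 calli, although after quantile normalization the TNG67 embryo (469.5 FPKM) stood below the TNG67 T2 callus (517.2 FPKM). The ratio of the Aux/IAA sum to the ARF sum, which no scaling factor of a library changes, was 1.17 in the TNG67 embryo and 1.16 in the IR64 embryo. It was 2.28 and 3.50 at T1, 1.23 and 1.87 at T2, 0.954 and 1.69 at TS, and 1.08 and 0.986 at TF, in TNG67 and IR64 in that order. In such bulk samples fewer cells of a type and less RNA per cell cannot be told apart.

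**Figure D1:**
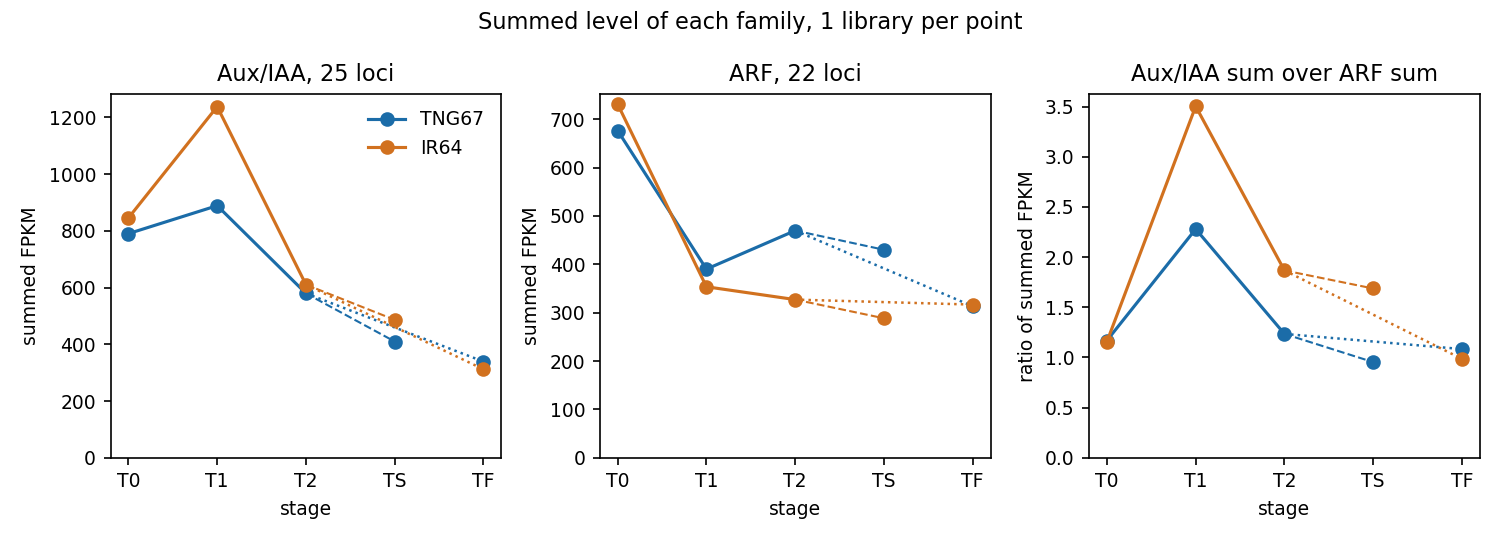
Summed FPKM of the 25 Aux/IAA loci and the 22 ARF loci in each of the 10 libraries, by stage and cultivar; solid lines join T0, T1 and T2, a dashed line leads from T2 to TS and a dotted line from T2 to TF. Aux/IAA sums peaked at T1 in both cultivars (889.1 FPKM in TNG67 and 1238.3 FPKM in IR64), and ARF sums were highest in the embryos.

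A few loci carried most of each family in the embryo. LOC_Os02g56120, an Aux/IAA locus on chromosome 2, stood at 249 and 235 FPKM in the TNG67 and IR64 embryos, which was 31.5% and 27.8% of the Aux/IAA sum. The 3 most abundant Aux/IAA loci held 74.0% of the sum in the TNG67 embryo and 58.9% in the IR64 embryo, but 34.4% and 28.8% at T1. The level of the median Aux/IAA member was 3.30 and 8.09 FPKM in the embryos and 26.8 and 36.2 FPKM at T1. The family's transcripts were thus spread over more loci at T1, where 16 members in TNG67 and 18 in IR64 reached 10 FPKM, than in the embryo, where 10 and 11 did. Over all 10 libraries the 5 Aux/IAA loci with the highest mean were LOC_Os05g48590 (84.4 FPKM), LOC_Os02g56120 (76.7 FPKM), LOC_Os05g08570 (60.9 FPKM), LOC_Os01g08320 (60.5 FPKM) and LOC_Os05g14180 (52.0 FPKM). Among ARFs the order was LOC_Os01g70270 (81.7 FPKM), LOC_Os02g41800 (77.0 FPKM), LOC_Os05g48870 (30.8 FPKM), LOC_Os04g36054 (30.3 FPKM) and LOC_Os11g32110 (29.6 FPKM). At the low end, LOC_Os11g11430 was listed at 0 in all 10 libraries, and LOC_Os03g58350 lay between 0.0469 and 0.886 FPKM. These are the 2 Aux/IAA loci that were not tested. LOC_Os11g11410 passed the filter through 3 libraries, the IR64 T1 (1.94 FPKM), TNG67 T1 (1.86 FPKM) and TNG67 T2 (1.18 FPKM) calli.

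**Figure D2:**
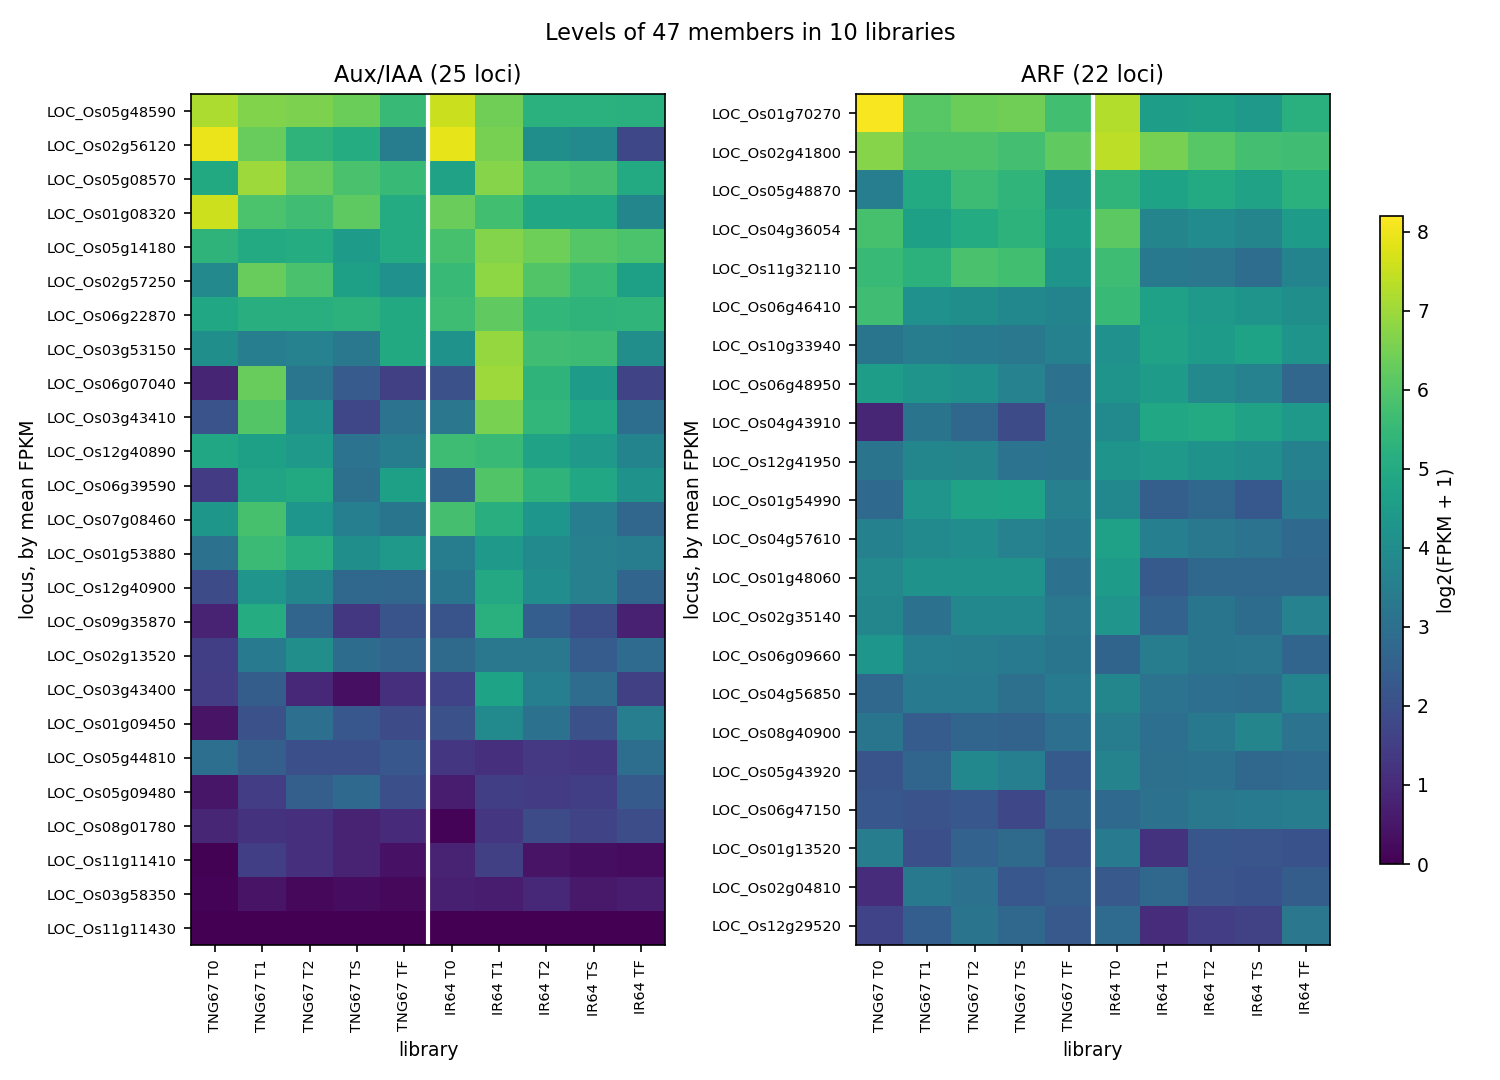
Levels of the members in the 10 libraries as log2(FPKM + 1), 1 row per locus, Aux/IAA and ARF loci apart, columns by cultivar and stage. Many Aux/IAA rows are at their highest in the T1 columns, while LOC_Os02g56120 and LOC_Os01g70270 are at their highest in the embryo columns.

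The comparison of T1 with T0 asks what differed between callus induced on auxin and the embryo, in both cultivars together. Aux/IAA transcripts rose at 8 of 23 tested loci and fell at 1. ARF transcripts rose at 1 of 22 and fell at 4. Among all loci tested, 11.7% rose and 14.6% fell, so the share of ARFs that fell was near that of all loci. The median fitted difference on the log2(FPKM + 1) scale was 1.10 over Aux/IAA members, -0.24 over ARFs and -0.00 over all loci tested. Within cultivars the ARF median was 0.07 in TNG67 and -0.75 in IR64, and the Aux/IAA median was 1.46 and 0.96. The middle Aux/IAA member, in the fit and in TNG67, was LOC_Os11g11410, a low locus that passed the filter only through T1 and T2 calli. The members next to it in the fit were LOC_Os03g53150 (1.07) and LOC_Os02g13520 (1.16). The test was limma with cultivar and stage as additive terms and a Benjamini-Hochberg adjusted p under 0.05 over all 22913 loci. With 1 library per cultivar and stage, its 4 residual degrees of freedom come from how far the cultivars departed from a common stage effect, not from the spread between cultures.

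LOC_Os06g07040, an Aux/IAA locus on chromosome 6, had the largest fitted difference of any member at T1. It stood at 0.820, 76.8, 8.30, 4.14 and 1.94 FPKM in TNG67 at T0, T1, T2, TS and TF, and at 3.07, 126, 39.6, 22 and 2.24 FPKM in IR64. Both T1 libraries were above the other 8, and both TF libraries were back among the embryos' levels. Its fitted T1 difference was 5.19 (SE 0.53, adjusted p = 0.00348 in limma) on the log2(FPKM + 1) scale, an (FPKM + 1) ratio of 42.7 in TNG67 and 31.3 in IR64. This call held in each of the 19 alternative fits, with adjusted p from 0.00284 to 0.0334.

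LOC_Os09g35870 on chromosome 9 was at 0.743 and 3.36 FPKM in the embryos of TNG67 and IR64, and at 32.4 and 36.2 FPKM at T1. By T2 it stood at 5.38 and 4.41 FPKM. Both T1 libraries were above the other 8, and the fitted T1 difference was 3.68 (SE 0.61, adjusted p = 0.00973 in limma). LOC_Os03g43410 on chromosome 3 went from 3.30 and 8.57 FPKM in the embryos to 62.8 and 93.6 FPKM at T1, and its T2 values were 16.9 and 41.8 FPKM. The T1 and embryo values did not overlap, and the fitted difference was 3.6 (SE 0.70, adjusted p = 0.0151 in limma).

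LOC_Os06g39590, also on chromosome 6, followed another course. Its levels in TNG67 were 1.77, 26.8, 30.6, 7.17 and 24.4 FPKM from T0 to TF, and in IR64 they were 5.12, 61.9, 39.2, 28.5 and 17.3 FPKM. All 8 calli were above both embryos, including the failed ones. The fitted T1 difference was 3.35 (SE 0.53, adjusted p = 0.00887 in limma). LOC_Os12g40900 on chromosome 12 moved from 2.68 and 8.09 FPKM to 18.5 and 30.0 FPKM, with a fitted difference of 2.09 (SE 0.34, adjusted p = 0.0098 in limma). LOC_Os05g08570 on chromosome 5, an abundant member, rose by close to the same ratio in both cultivars, with 30.5 FPKM before and 128 FPKM after in TNG67, and 25.4 and 104 FPKM in IR64. Its (FPKM + 1) ratios were 4.09 and 3.98. Its fitted difference was 2.01 (SE 0.22, adjusted p = 0.00385 in limma). The remaining Aux/IAA loci that rose were LOC_Os02g57250 (fitted difference 1.87) and LOC_Os01g53880 (1.73).

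Against this direction, LOC_Os01g08320 on chromosome 1 stood at 192 and 79.3 FPKM in the embryos of TNG67 and IR64 and fell to 57.6 and 51.4 FPKM. The highest callus value was below the lower embryo value, and the fitted difference was -1.17 (SE 0.33, adjusted p = 0.0459 in limma). LOC_Os02g56120, the leading embryo locus, stood at 77.8 and 90.8 FPKM at T1, and its fitted difference of -1.51 did not pass (adjusted p = 0.0661 in limma). The adjusted p values of 13 further Aux/IAA members also stood above 0.05. Most T1 calls were lost when either T1 library was left out, and calls over the whole table fell too. Without the TNG67 T1 library, 4 of the 14 members still passed (LOC_Os06g07040, LOC_Os05g08570, LOC_Os06g39590 and the ARF locus LOC_Os01g13520), and the other 10 had adjusted p from 0.0508 to 0.202 in limma. Without the IR64 T1 library, 3 still passed (LOC_Os06g07040, LOC_Os05g08570 and LOC_Os01g08320), and the other 11 had adjusted p from 0.0611 to 0.176. Without any of the other 8 libraries, between 11 and 13 of the 14 passed, and the lost calls were among LOC_Os01g08320, LOC_Os01g53880, LOC_Os04g36054 and LOC_Os04g43910 (adjusted p from 0.0502 to 0.139 in limma). The embryo libraries also shift the balance of the 9 higher and 5 lower members, towards lower without the TNG67 embryo and towards higher without the IR64 embryo. Both of these fits leave 1 library at T0. Over all loci tested, the share of calls that were higher moved the other way in each.

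**Figure D3:**
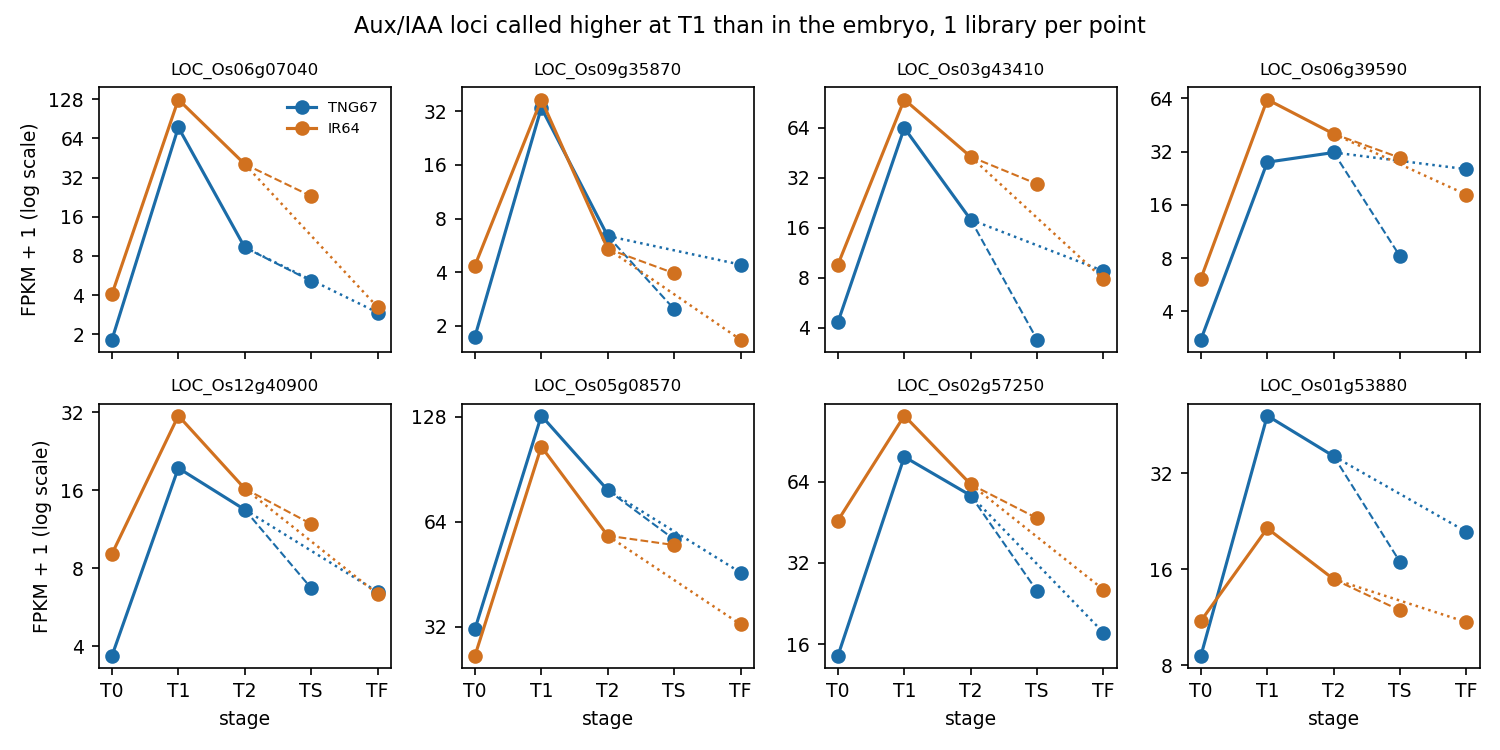
Levels of the Aux/IAA loci that rose between T0 and T1, as FPKM + 1 on a log axis, by stage, with 1 line per cultivar. LOC_Os06g07040 and LOC_Os09g35870 peak sharply at T1 in both cultivars, while LOC_Os06g39590 remains above both embryos in all 8 calli.

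Most ARF loci that passed between the embryo and T1 fell, though the share of the family that fell was near that of all loci. LOC_Os01g70270 on chromosome 1, the most abundant ARF locus, stood at 277, 66.9, 81.5, 85.1 and 51.9 FPKM in TNG67 from T0 to TF. Its levels in IR64 were 151, 22.5, 24.5, 20.5 and 35.9 FPKM. Both embryos were above all 8 calli, and the fitted T1 difference was -2.36 (SE 0.39, adjusted p = 0.0099 in limma). In the TNG67 embryo this locus alone held 40.9% of the ARF sum. LOC_Os01g13520 fell from 10.1 and 9.15 FPKM to 3.02 and 1.32 FPKM, with a fitted difference of -1.80 (SE 0.27, adjusted p = 0.00804 in limma). LOC_Os04g36054 fell from 55.4 and 69.0 FPKM to 24.4 and 12.3 FPKM, a fitted difference of -1.77 (SE 0.46, adjusted p = 0.0354 in limma). LOC_Os06g46410 fell from 50.4 and 46.6 FPKM to 16.8 and 25.1 FPKM, a fitted difference of -1.20 (SE 0.23, adjusted p = 0.0148 in limma). In each of these loci both T1 libraries were below both embryos.

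The single ARF locus that rose was LOC_Os04g43910 on chromosome 4. It stood at 0.835, 7.92, 5.67, 2.75 and 8.16 FPKM in TNG67 from T0 to TF, and at 13.9, 29.3, 31.3, 25.3 and 20.2 FPKM in IR64. The calli of each cultivar were above the embryo of that cultivar, but every TNG67 library was below every IR64 library. Its fitted T1 difference was 1.65 (SE 0.46, adjusted p = 0.0416 in limma). It did not pass without either T1 library, as given above for the whole set. After quantile normalization 9 members rose and 3 fell, against 9 and 5 on the deposited scale, because LOC_Os01g08320 and LOC_Os04g36054 no longer passed (adjusted p from 0.113 to 0.193 in limma). Over all loci tested, 2813 rose and 2656 fell after quantile normalization, against 2676 and 3347 on the deposited scale. With the cultivar term left out, 6 of the 14 members passed, and over all loci tested 1021 rose and 1483 fell.

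**Figure D4:**
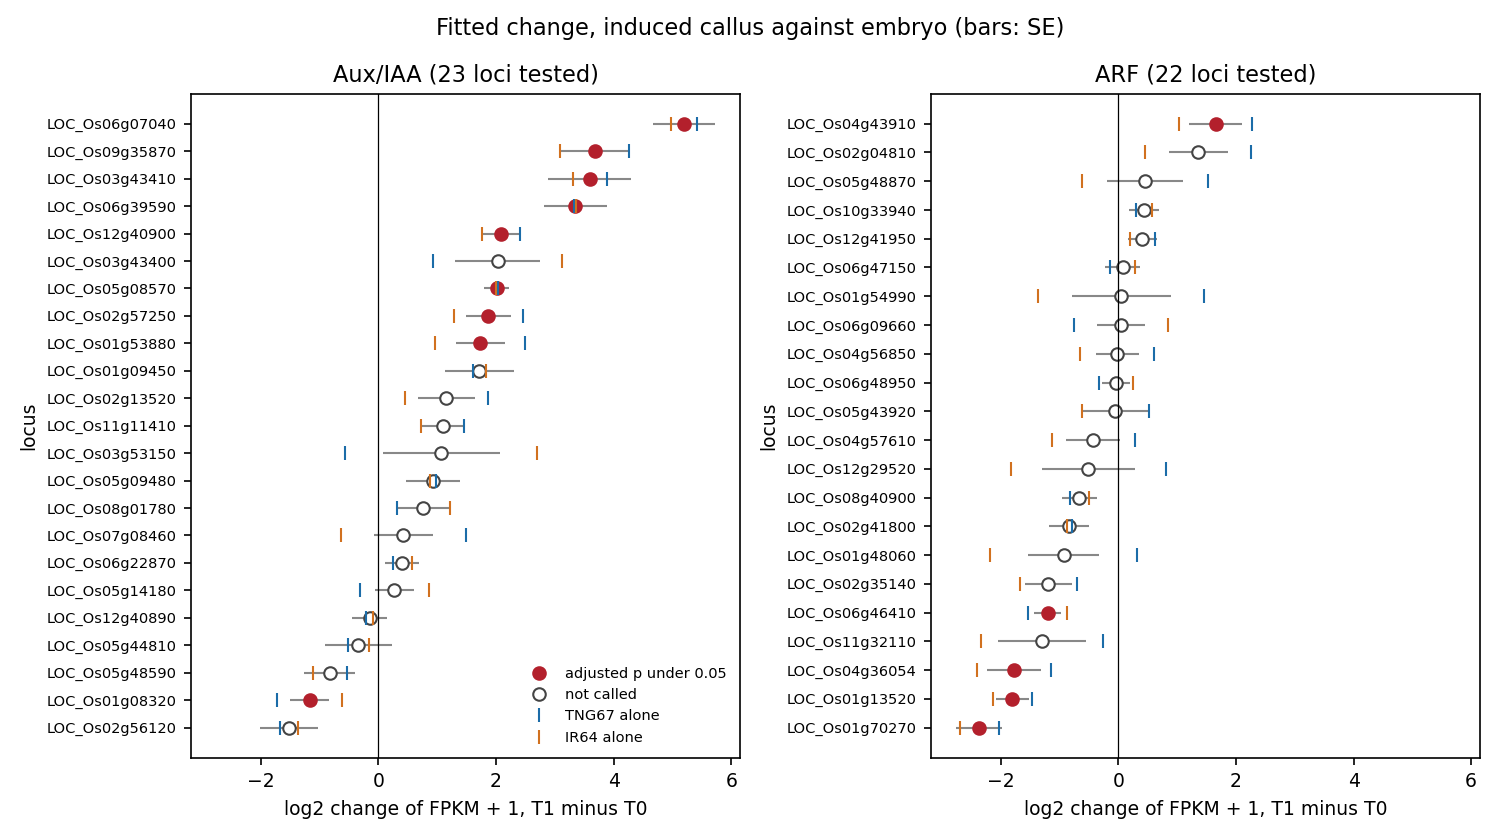
Fitted T1 minus T0 difference of each tested member on the log2(FPKM + 1) scale, with ticks for the difference within each cultivar, Aux/IAA and ARF loci apart and loci past the test marked. The Aux/IAA loci extend to 5.19 (LOC_Os06g07040), and the ARF loci lie between -2.36 and 1.65.

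The later calli were also compared with the embryo, which is the same pair of embryo libraries as above, so these comparisons are not independent of each other. At T2, 4 Aux/IAA loci were higher than in the embryo and 2 were lower, against 0 and 3 ARF loci, where 8.32% of all loci tested were higher and 12.2% lower. At TS the counts were 1 higher and 3 lower for Aux/IAA and 0 and 3 for ARFs, against 6.36% and 9.16% of all loci. At TF they were 1 and 5 for Aux/IAA and 0 and 4 for ARFs, against 7.12% and 11.2% of all loci. With 22 ARFs tested, the counts of lower ARFs at T2 and TS were near the shares of all loci. The median fitted Aux/IAA difference from the embryo was 1.02 at T2, 0.31 at TS and 0.15 at TF, and that of ARFs was -0.25, -0.23 and -0.43. Over all loci tested these medians were 0.04, 0.07 and 0.00. The fitted values average over cultivars that differed. Within TNG67 the ARF medians at T2, TS and TF were 0.25, 0.06 and -0.20, and within IR64 they were -0.92, -1.05 and -0.64. The Aux/IAA median at TF was 0.34 in TNG67 and -0.28 in IR64.

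LOC_Os02g56120 had the largest fall of any member. Its levels in TNG67 were 249, 77.8, 39.2, 32.9 and 10.03 FPKM at T0, T1, T2, TS and TF, and in IR64 they were 235, 90.8, 15.9, 14.1 and 2.43 FPKM. The order of the 5 stages was the same in both cultivars, with the embryo highest and the failed callus lowest. Fitted differences from the embryo were -3.22 at T2 (SE 0.49, adjusted p = 0.0101 in limma), -3.42 at TS (adjusted p = 0.0125) and -5.30 at TF (adjusted p = 0.00535). The TF call held in each of the 19 alternative fits, with adjusted p from 0.00429 to 0.0457, also without the TNG67 TF library. LOC_Os01g08320 stood at 51.0, 70.9 and 31.8 FPKM in TNG67 at T2, TS and TF and at 29.5, 29.2 and 12.5 FPKM in IR64, all below both embryos. Its fitted differences were -1.64, -1.42 and -2.56 (adjusted p = 0.0207, 0.0386 and 0.00876 in limma).

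LOC_Os12g40890 on chromosome 12 stood at 28.4, 24.5, 20.2, 7.72 and 9.77 FPKM in TNG67 from T0 to TF and at 48.9, 45.8, 25.5, 20.4 and 12 FPKM in IR64. It was below the embryo of its cultivar at TS and TF, with fitted differences of -1.49 and -1.69 (SE 0.30 for both, adjusted p = 0.027 and 0.0175 in limma). At TF but at no earlier stage past the test, LOC_Os07g08460 fell to 8.02 and 5.49 FPKM from 19.2 and 54.3 FPKM in the embryos (fitted difference -2.13, adjusted p = 0.035 in limma). LOC_Os05g48590 fell to 45.1 and 35.6 FPKM from 145 and 184 FPKM (fitted difference -2.00, adjusted p = 0.0286 in limma). The groups did not overlap for either locus. Of the Aux/IAA loci that rose at T1, LOC_Os06g39590, LOC_Os06g07040, LOC_Os12g40900 and LOC_Os05g08570 were still above the embryo at T2, with fitted differences of 3.11, 2.84, 1.35 and 1.23 (adjusted p = 0.013, 0.0165, 0.0391 and 0.0138 in limma). At TS, LOC_Os05g08570 alone passed (0.96, adjusted p = 0.0353 in limma), and at TF LOC_Os06g39590 alone passed (2.39, adjusted p = 0.0308 in limma).

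Among ARFs, LOC_Os01g70270 was below the embryo at all callus stages, with fitted differences of -2.16, -2.26 and -2.22 at T2, TS and TF (adjusted p = 0.0151, 0.0185 and 0.0172 in limma). LOC_Os06g46410 was also below it throughout, at 15.9, 13.3 and 12.1 FPKM in TNG67 and 20.4, 18.1 and 15.8 FPKM in IR64 over those stages (fitted differences -1.38, -1.58 and -1.74, adjusted p = 0.0126, 0.013 and 0.00945 in limma). LOC_Os01g13520 passed at T2 (-1.03, adjusted p = 0.0442) and TF (-1.33, adjusted p = 0.0255 in limma). LOC_Os02g41800, the ARF with the second highest mean, passed at TS (-1.29, adjusted p = 0.0498 in limma), where it stood at 52.2 and 52.8 FPKM against 103 and 165 FPKM in the embryos. This call was lost in 12 of the 19 alternative fits. LOC_Os06g48950 passed at TF (-1.51, SE 0.24, adjusted p = 0.0133 in limma), at 7.37 and 5.59 FPKM against 22.7 and 17.8 FPKM in the embryos. Its TF values were the lowest of the 5 stages in both cultivars.

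These counts rest on both libraries of a stage, and leaving out 1 of a callus stage's libraries lowered the calls of that stage over the whole table too. At T2 the 9 calls were all lost without either T2 library, a fit that leaves a single library at that stage. Without any other library 7 or 8 of the 9 held (lost calls 0.0566 to 0.097). At TS the 7 calls were likewise all lost without either TS library. They became 4 without either T1 library and 3 without either T2 library (lost calls 0.0508 to 0.103), and without a T0 or TF library 4 or 5 of the 7 held (lost calls 0.0501 to 0.122). At TF the 10 calls became 1, that of LOC_Os02g56120, without the TNG67 TF library (lost calls 0.0557 to 0.154) and 5 without the IR64 TF library (0.0625 to 0.148), and without any other library between 7 and 9 held (lost calls 0.0503 to 0.0822). Leaving out an embryo library also added calls, among these members and over the whole table. These fits leave a single embryo library. Without the IR64 embryo, more members were higher and fewer lower at T2, TS and TF than with all libraries. Over the whole table, both higher and lower calls increased. The ARF locus LOC_Os02g04810 was among the members higher at all 3 stages, as was LOC_Os04g43910 at T2 and TF. Without the TNG67 embryo, more members were lower at these stages and as many were higher. Over the whole table, higher calls increased and lower calls changed little. For TS a pseudocount of 0.1 gave 4 higher and 6 lower, adding the Aux/IAA loci LOC_Os05g09480, LOC_Os06g07040 and LOC_Os06g39590, and a filter at a mean of 5 FPKM gave 3 and 6, adding LOC_Os06g07040 and LOC_Os06g39590. Over all loci tested, that pseudocount gave 1864 higher and 2059 lower at TS, and that filter gave 1135 and 1926. After quantile normalization 5 members were higher and 2 lower at T2, against 4 and 5 on the deposited scale, and 1 was higher and 2 lower at TS, against 1 and 6. Over all loci, 1983 were then higher and 2102 lower at T2, against 1907 and 2801. At TS these were 1245 and 1456, against 1457 and 2098.

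Within the calli, the levels of most Aux/IAA members were lower at T2 than at T1, and lower at TS and TF than at T2, by amounts that did not pass the test. No locus of the table passed limma's test between callus stages (0 of 22913, 0.00%, for T2 against T1, TS against T2, TF against T2 and TF against TS). At an unadjusted p under 0.05 there were 5, 1, 10 and 5 members in these comparisons, and 653, 224, 1008 and 960 loci in all. No other tool was run. The directions are therefore given as counts in single libraries. Of 23 tested Aux/IAA members, 13 had their highest callus level at T1 in both cultivars, against 5 of 22 ARFs and 14.5% of all loci tested. The 13 include LOC_Os11g11410, which passed the filter only through T1 and T2 calli. The lowest callus level was at TF in both cultivars for 9 Aux/IAA members and 4 ARFs, against 13.6% of all loci. In IR64 alone, which leaves out the TNG67 TF library, it was at TF for 17 Aux/IAA members and 8 ARFs, against 36.3% of all loci.

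Between T1 and T2, which share a medium, 14 of 23 Aux/IAA members and 7 of 22 ARFs were lower at T2 in both cultivars, against 27.7% of all loci tested. The median fitted difference was -0.55 for Aux/IAA, 0.18 for ARFs and 0.03 for all loci. By an (FPKM + 1) ratio of at least 4, the size of cutoff that the labels name, 2 members were lower in TNG67 (0.515% of all loci) and 2 in IR64 (0.205%), and 0 were higher in either (0.388% and 0.371% of all loci). In TNG67 they were LOC_Os06g07040, which went from 76.8 to 8.30 FPKM, and LOC_Os09g35870, from 32.4 to 5.38 FPKM. In IR64 they were LOC_Os09g35870, from 36.2 to 4.41 FPKM, and LOC_Os02g56120, from 90.8 to 15.9 FPKM. The fitted differences of LOC_Os09g35870, LOC_Os06g07040 and LOC_Os03g43410 were -2.58, -2.36 and -1.49, all with an adjusted p of 1 in limma.

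From T2 to TS, 19 Aux/IAA members and 12 ARFs were lower in both cultivars, against 23.9% of all loci. The differences were small, with a median of -0.61 for Aux/IAA, -0.21 for ARFs and 0.04 for all loci. LOC_Os03g43410 in TNG67 was the member with a ratio of at least 4 (16.9 to 2.38 FPKM, a class that held 0.113% of all loci), and 0 members reached it in IR64 (0.0742%). No member was at least 4-fold higher at TS, as were 0.183% of all loci in TNG67 and 0.0218% in IR64. In IR64 this locus stood at 41.8 FPKM at T2 and 28.3 FPKM at TS. From T2 to TF, 17 Aux/IAA members and 8 ARFs were lower in both cultivars, against 29.5% of all loci, with medians of -0.81, -0.21 and -0.05. The number of members at least 4-fold lower at TF was 0 in TNG67 (0.340%) and 3 in IR64 (0.615%), namely LOC_Os06g07040, LOC_Os02g56120 and LOC_Os03g43410. Again 0 members were 4-fold higher, where 2.38% of all loci in TNG67 and 2.58% in IR64 were. LOC_Os06g07040 stood at 8.30 FPKM at T2 and 1.94 FPKM at TF in TNG67 and at 39.6 and 2.24 FPKM in IR64, a fitted difference of -2.66 (adjusted p = 0.817 in limma). LOC_Os02g56120 differed by -2.09 (adjusted p = 0.841), LOC_Os03g43410 by -1.74 (adjusted p = 0.998) and the ARF locus LOC_Os06g48950 by -1.09 (adjusted p = 0.824 in limma). In IR64 alone, 19 Aux/IAA members and 12 ARFs were lower at TF than at T2, against 54.7% of all loci, with medians of -1.03 for Aux/IAA, -0.07 for ARFs and -0.05 for all loci. Without the TNG67 TF library, which leaves a single TF library, the fitted differences of LOC_Os06g07040, LOC_Os02g56120, LOC_Os03g43410 and LOC_Os06g48950 were -3.36, -2.65, -2.58 and -1.22. None of them passed.

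Failed and regenerated calli were on the same medium. Here 9 of 23 Aux/IAA members and 6 of 22 ARFs were lower at TF in both cultivars, against 33.5% of all loci tested, so the shares were near the background. In IR64 alone, 17 Aux/IAA members and 11 ARFs were lower at TF, against 56.6% of all loci. The median fitted difference was -0.21 for Aux/IAA, -0.10 for ARFs and -0.08 for all loci. LOC_Os02g56120 was at 32.9 FPKM at TS and 10.03 FPKM at TF in TNG67, and at 14.1 and 2.43 FPKM in IR64. LOC_Os01g08320 was at 70.9 and 31.8 FPKM in TNG67 and at 29.2 and 12.5 FPKM in IR64. Both loci were at least 2-fold lower at TF in both cultivars, with fitted differences of -1.88 and -1.14, neither of which passed (adjusted p = 0.987 in limma for both). By the 4-fold ratio 0 members in TNG67 (0.602% of all loci) and 2 in IR64 (LOC_Os06g07040 and LOC_Os02g56120; 0.441%) were lower at TF, and in neither cultivar was a member at least 4-fold higher, where 2.43% and 2.68% of all loci were. Without the TNG67 TF library, which leaves a single TF library, the fitted TF minus TS differences of LOC_Os02g56120 and LOC_Os01g08320 were -2.44 and -1.35. Neither passed.

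The cultivars were compared over the 5 stages, each stage being a pair of libraries. In TNG67, 1 Aux/IAA and 1 ARF locus were higher than in IR64, and 4 Aux/IAA and 4 ARF loci were lower, against 14.0% and 13.3% of all loci tested. The median difference, TNG67 minus IR64, was -0.40 for Aux/IAA, 0.11 for ARFs and 0.00 for all loci. The shares of lower members were near that of all loci. All 10 loci differed in the same direction at 5 of 5 stages. The test favours such loci, because its spread comes from how the difference varied over the stages. This agreement is therefore no separate support, and the share of all loci with it is not given here. IR64 reads were mapped to a japonica genome, so a locus of differing sequence could be counted lower in IR64, and the part of this in the differences was not tested.

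LOC_Os04g43910, the ARF locus that rose in callus, differed most. Its 5 TNG67 values, 0.835 to 8.16 FPKM, lay below its 5 IR64 values, 13.9 to 31.3 FPKM, and the fitted difference was -2.22 (SE 0.29, adjusted p = 0.00351 in limma). The ARF locus LOC_Os10g33940 had a narrower range, 8.06 to 11.2 FPKM in TNG67 and 16.7 to 25.9 FPKM in IR64, with no overlap (-1.08, SE 0.16, adjusted p = 0.00559 in limma). These 2 loci passed in each of the 20 alternative fits of this comparison. LOC_Os06g47150 lay between 2.43 and 5.04 FPKM in TNG67 and between 6.0 and 9.88 FPKM in IR64 (-1.02, SE 0.18, adjusted p = 0.0111 in limma). LOC_Os12g41950 differed by -0.72 (adjusted p = 0.0206 in limma), and its ranges overlapped, at 7.64 to 12.6 FPKM and 11.1 to 20.8 FPKM.

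Of the Aux/IAA loci lower in TNG67, LOC_Os05g14180 lay between 22.3 and 39.6 FPKM in TNG67 and between 54.8 and 101 FPKM in IR64, without overlap. Its fitted difference was -1.15 (SE 0.21, adjusted p = 0.0123 in limma). LOC_Os03g43400 had 0.251 to 4.31 FPKM in the TNG67 libraries and 1.94 to 26.2 FPKM in those of IR64 (-1.63, SE 0.45, adjusted p = 0.0412 in limma). LOC_Os06g07040 and LOC_Os12g40890 differed by -1.26 and -0.71 (adjusted p = 0.0366 and 0.0384 in limma), and the ranges of the cultivars overlapped at both. The calls of LOC_Os03g43400, LOC_Os06g07040 and LOC_Os12g40890 were lost in 10, 13 and 11 of the 20 alternative fits. The loci higher in TNG67 were both prominent in the embryo: the ARF locus LOC_Os01g70270 (1.32, SE 0.25, adjusted p = 0.0127 in limma) and the Aux/IAA locus LOC_Os01g08320 (0.94, SE 0.21, adjusted p = 0.0223 in limma). At T0 they stood at 277 and 192 FPKM in TNG67 against 151 and 79.3 FPKM in IR64.

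On the 8 calli alone, 16 members passed, 8 higher and 8 lower in TNG67, against 18.6% and 21.1% of 22308 loci. Among them were the ARF loci LOC_Os11g32110 (1.98, adjusted p = 0.0162 in limma), LOC_Os01g54990 (1.61, adjusted p = 0.0275) and LOC_Os01g48060 (1.28, adjusted p = 0.0181). LOC_Os11g32110 stood at 45.4 and 49.5 FPKM in the TNG67 and IR64 embryos. In the calli it was at 37.7, 56.6, 52.1 and 18.1 FPKM in TNG67 from T1 to TF, and at 9.06, 8.46, 6.57 and 12.1 FPKM in IR64. The embryos lay close together, and the calli of the cultivars did not overlap, with the TNG67 TF library nearest to IR64. Leaving out a library here removes its stage pair from the comparison: 16 members passed without either T0 library, 6 without either T1 library, 2 without either T2 library, 4 without either TS library and 11 without either TF library. The lost calls had adjusted p from 0.0517 to 0.133 in limma. Over all loci tested, more passed without a T0 library and fewer without a T1, T2, TS or TF library.

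**Figure D5:**
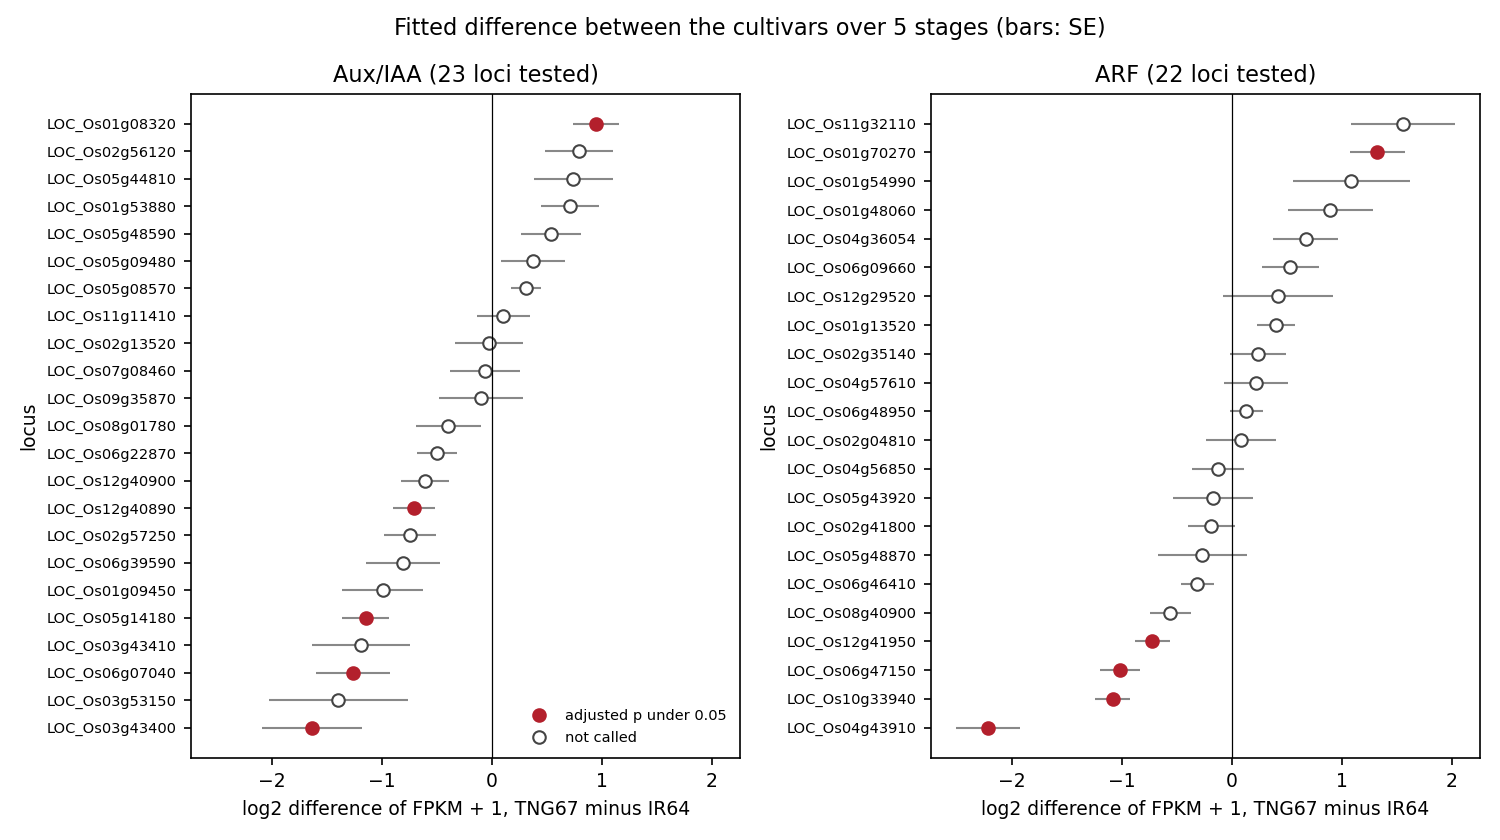
Fitted TNG67 minus IR64 difference of each tested member over the 5 stages on the log2(FPKM + 1) scale, with bars of 1 standard error, Aux/IAA and ARF loci apart and loci past the test marked. LOC_Os04g43910 lies lowest at -2.22, and the loci past the test on the higher side are LOC_Os01g70270 at 1.32 and LOC_Os01g08320 at 0.94.

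In the T1, T2 and TS calli, 12 of 45 tested members were at least 2-fold apart between the cultivars without overlap. So were 6607 of 22913 loci tested, a share near that of the members. At TF, the TNG67 library stood past the midpoint towards IR64 at 3 of these 12, against 33.3% of the 6607 loci of the table separated in the same way. The IR64 TF library stood past the midpoint towards TNG67 at 4 of 12, against 19.6%. With 12 loci, the distance of these shares from the background was not tested.

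Members with neighbouring locus numbers formed 3 pairs, all Aux/IAA. LOC_Os03g43410 was higher than LOC_Os03g43400 in 10 of 10 libraries, with a median FPKM ratio of 4.16 and a range from 1.84 to 18.5. LOC_Os12g40900 was lower than LOC_Os12g40890 in all 10, with a median ratio of 0.580 and a range from 0.0945 to 0.755. Their levels also took different courses, since LOC_Os12g40900 rose at T1 while LOC_Os12g40890 was at 28.4 and 24.5 FPKM in TNG67 and at 48.9 and 45.8 FPKM in IR64 at T0 and T1. In the third pair LOC_Os11g11430 was listed at 0 and LOC_Os11g11410 was at most 1.94 FPKM. Reads were kept only where they aligned uniquely, so reads shared by near-identical copies would be lost, and levels of such neighbours are uncertain to that extent.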

How the data were processed

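RNA of 10 libraries, 1 for each of 5 stages in 2 cultivars, was analysed; bisulfite data (10 libraries) were not used here. The deposited values are FPKM per gene, which the authors made, per the labels' protocols, from reads checked with FastQC and mapped with Bowtie and TopHat to IRGSP-1.0 with at most 2 mismatches, keeping unique alignments. For versions, strand setting and gene models, the entry is the same: not given in the sources used here. Depth is unknown. Every member had 1 row, and rows of 968 other loci with several rows were summed. The 22913 loci that reached 1 FPKM in 2 or more libraries were tested on log2(FPKM + 1) with limma 3.58.1 in R 4.3.3, with cultivar and stage as additive terms, an intensity trend in the empirical Bayes step, and Benjamini-Hochberg adjustment over all loci at 0.05. The fit was tested on simulated data. Where nothing says that libraries came from separate cultures, p-values measure only the spread between these libraries. The cultivar, taken from the labels, paired libraries across stages: deviations from stage means correlated at 0.37 to 0.94 over 10 pairs of libraries of a cultivar.

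Named loci were up to 5 per family and direction with the largest fitted change past the test, up to 3 with a 2-fold ratio in both cultivars where none passed, the 5 most abundant of each family, members under 1 FPKM throughout, members moving at least 2-fold in opposite directions between TF and TS, and neighbouring locus numbers. Members and lists were chosen with earlier results of these data known. Loci that passed the test beyond this rule, the counts of lower and highest levels, the counts in IR64 alone, the members named for the 8 calli alone, those named for a 4-fold ratio, and the positions of the TF libraries were chosen after their values were seen. Alternatives were a pseudocount of 0.1 or 5, a filter at a mean of 5 FPKM or none, scaling by median ratio or by quantiles, no cultivar term, no trend, loci on a single row, the 8 calli alone, a 2-fold ratio, and each library left out. Plots were made with matplotlib 3.10.9.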

Additional observations from a re-analysis of the deposited data

Results flagged for a closer look

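At 6 loci the levels of the cultivars differed at least 2-fold in opposite directions between the same stages. Each case rests on 4 single libraries, and the difference between the cultivars was not tested. The share of all loci that did the same is not given here, so the count cannot be read as a trait of these families. Values are differences on the log2(FPKM + 1) scale.

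LOC_Os01g54990, an ARF locus, stood at 6.03, 18.3, 25.6, 26.3 and 10.9 FPKM in TNG67 from T0 to TF, and at 13.3, 4.57, 5.79, 3.78 and 9.61 FPKM in IR64. The TNG67 calli were above their embryo and the IR64 calli below theirs. For T1 against T0 the difference was 1.45 in TNG67 and -1.36 in IR64, 2.81 apart. For T2 against T0 it was 1.92 and -1.07, 2.99 apart, and for TS against T0 1.96 and -1.58, 3.54 apart. For TF against TS it was -1.20 and 1.15, -2.35 apart, and the 2 TF libraries were close to each other in level.

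LOC_Os12g29520, an ARF locus, stood at 2.14, 4.5, 7.89, 5.84 and 3.93 FPKM in TNG67 and at 6.24, 1.05, 1.82, 2.05 and 8.47 FPKM in IR64. Its differences were 1.5 and -1.36 for T2 against T0, 2.86 apart, and 1.12 and -1.25 for TS against T0, 2.37 apart.

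LOC_Os03g53150, an Aux/IAA locus, stood at 15.9, 10.4, 11.3, 8.71 and 30.3 FPKM in TNG67 and at 17.3, 118, 50.5, 47.8 and 15.5 FPKM in IR64. For TF against T2 the differences were 1.34 and -1.64, 2.98 apart, and for TF against TS they were 1.69 and -1.56, 3.25 apart. The embryos were close in level, and the IR64 T1, T2 and TS calli were above all TNG67 libraries.

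LOC_Os03g43410, an Aux/IAA locus, differed by 1.37 and -1.90 for TF against TS, 3.28 apart, with 2.38 FPKM at TS and 7.76 FPKM at TF in TNG67, against 28.3 and 6.84 FPKM in IR64. Its neighbour LOC_Os03g43400 differed by -1.16 and 1.29 for TS against T0, -2.46 apart. LOC_Os09g35870, an Aux/IAA locus, differed by 1.34 and -1.38 for TF against T0, 2.72 apart, with 0.743 FPKM at T0 and 3.41 FPKM at TF in TNG67, against 3.36 and 0.677 FPKM in IR64. The TNG67 TF library, which correlated more closely with the IR64 calli than the other TNG67 calli did, enters the differences that involve TF.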

How the results depend on the processing

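Over the alternatives tried, no named member's fitted change turned direction: of 1080 combinations of a change and an alternative, 837 remained on the same side of the threshold and 243 no longer passed. The 837 include the named changes between callus stages, which passed in no fit and so had no call to lose. The replicate block here is the cultivar. With no replicate block, the number of members past the test was 6 for T1 against T0, 3 for T2, 2 for TS and 3 for TF against T0, and 4 between cultivars, against 14, 9, 7, 10 and 10 with it. Calls over the whole table fell too. With no block they were 1021 higher and 1483 lower for T1, 479 and 1030 for T2, and 200 and 512 for TS. For TF they were 276 and 642, and between cultivars 2060 and 1896. With the block these were 2676 and 3347, 1907 and 2801, 1457 and 2098, 1631 and 2562, and 3211 and 3050. Quantile normalization left 3 members for TS against T0, and the 8 calli alone gave 16 between cultivars. Leaving out 1 library at a time gave 3 to 16 members for T1 against T0, 0 to 13 for T2, 0 to 9 for TS and 1 to 13 for TF against T0, 2 to 16 between cultivars, and 0 in each of the comparisons between callus stages. Where 1 library of a stage was left out, the remaining one was assumed to vary like the rest.

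The counts of members at least 4-fold apart within a cultivar are small and follow the pseudocount. A pseudocount of 5 gave 1 for T2 against T1 in TNG67, 0 for TS against T2 in TNG67, 1 for TF against T2 in IR64 and 0 for TF against TS in IR64. A pseudocount of 0.1 gave 2 for TS against T2 and 1 for TF against T2 in TNG67. In IR64 it gave 7 for TF against T2 (2 higher, 5 lower) and 4 for TF against TS (1 higher, 3 lower). Quantile normalization gave 2 for TS against T2 and 1 for TF against T2 in TNG67. For these pseudocounts and for quantile normalization, the share of all loci is not given here. A 2-fold ratio gave, in TNG67, 6 for T2 against T1 and 8 for TS against T2. It gave 16 for TF against T2 and 11 for TF against TS there. In IR64 the counts were 8, 1, 15 and 11. Higher and lower members were 1 and 5, 0 and 8, 1 and 15, and 4 and 7 in TNG67. In IR64 they were 0 and 8, 0 and 1, 2 and 13, and 4 and 7. Over all 22913 loci tested, 791 and 738, 603 and 418, 2063 and 1085, and 1890 and 1162 were higher and lower in TNG67. In IR64 these were 799 and 570, 258 and 309, 1957 and 900, and 1976 and 958. The cause of these differences between settings was not tested. With FPKM values alone, counting error could not be given for low members.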
